A study of Mus musculus with 40 samples.

Results

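The genes described here are 43 interferon-stimulated genes of the mouse, other than the Ifit family, among the 54532 genes of the deposited expression table. They were taken by gene name from a list of known interferon targets, and all 43 were found in the table. The tissue was the uterus of prepubertal mice, sequenced as bulk RNA in 40 libraries, with 5 libraries in each of 8 groups. The series text gives postnatal day 25 for the mice, and does not make clear whether that is the day of the first dose or of collection. Controls received the vehicle (labelled PBS/Saline). Another treatment was doxorubicin, an anthracycline chemotherapy drug that traps topoisomerase II on DNA and breaks it, given at 3 mg/kg in a schedule of 2 weekly doses. Further mice received doxorubicin (3 mg/kg) together with anti-Müllerian hormone (AMH, 0.75 mg/kg), an ovarian hormone of the TGF-beta family, or AMH (0.75 mg/kg) alone. Uteri of every treatment were collected 4 h or 24 h after treatment. The study asked how doxorubicin affects the prepubertal uterus and what AMH changes when given with it.

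Interferons are secreted proteins that warn cells of viruses and of nucleic acid in the wrong place. Type I and type III interferons act through receptor-bound JAK kinases to form a complex, with STAT2 and IRF9 in it, that binds the interferon-stimulated response element (ISRE) near target genes, and interferon gamma acts through the gamma-activated site (GAS). The targets include sensors of foreign RNA and DNA, the factors that carry the signal, and effector proteins that block viral replication. Damaged DNA that leaks into the cytosol is a known trigger of the same genes, and the uterine epithelium is known for making interferon epsilon under hormonal control.

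Windows of 250 bases before to 50 bases after an annotated start were read from RefSeq (GRCm38.p6) for 31 of the 43 genes. The ISRE core was searched as GAAA, any 2 bases, GAAA, on both strands, and the GAS core as TTC, any 3 bases, GAA, which reads the same on both strands. An ISRE core lay in the windows of 15 of the 31 genes (48.4%), against 4.0% of 27025 genes with a window. A GAS core lay in 8 of 31 (25.8%), against 9.6%. Of these, 6 stretches are printed because they hold the core near the start of genes whose levels are described further on; Oas3 is shown as a gene not called after doxorubicin. Capitals mark the ISRE core, which reads as TTTC, any 2 bases, TTTC when it lies on the opposite strand.
Isg15 (chr4:156200860-156200911, minus strand): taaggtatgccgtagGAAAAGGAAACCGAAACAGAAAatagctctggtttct
Igtp (chr11:58199507-58199546, plus strand): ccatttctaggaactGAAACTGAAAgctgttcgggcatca
Rsad2 (chr12:26456548-26456587, minus strand): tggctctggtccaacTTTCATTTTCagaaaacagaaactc
Gbp7 (chr3:142530268-142530307, plus strand): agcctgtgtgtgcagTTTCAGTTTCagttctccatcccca
Bst2 (chr8:71537572-71537617, minus strand): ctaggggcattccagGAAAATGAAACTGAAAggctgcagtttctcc
Oas3 (chr5:120777710-120777749, minus strand): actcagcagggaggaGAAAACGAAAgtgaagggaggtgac
In Isg15, 3 overlapping cores ran from base -78 to base -57 before the start. In Bst2, 2 overlapping cores ran from -130 to -115, and a GAS match overlapped them. The core lay upstream of the start in 12 of the 15 genes and after it in Ddx58, Ifih1 and Eif2ak2. Of the 15 genes with a match, 11 were called higher after doxorubicin at 24 h, and of the 16 with a window and no match, 10 were. Across all genes tested, 8.44% were called higher in that comparison. The share among all genes with a match is not given here. A match describes letters in a window and was not measured as binding.

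**Figure D1:**
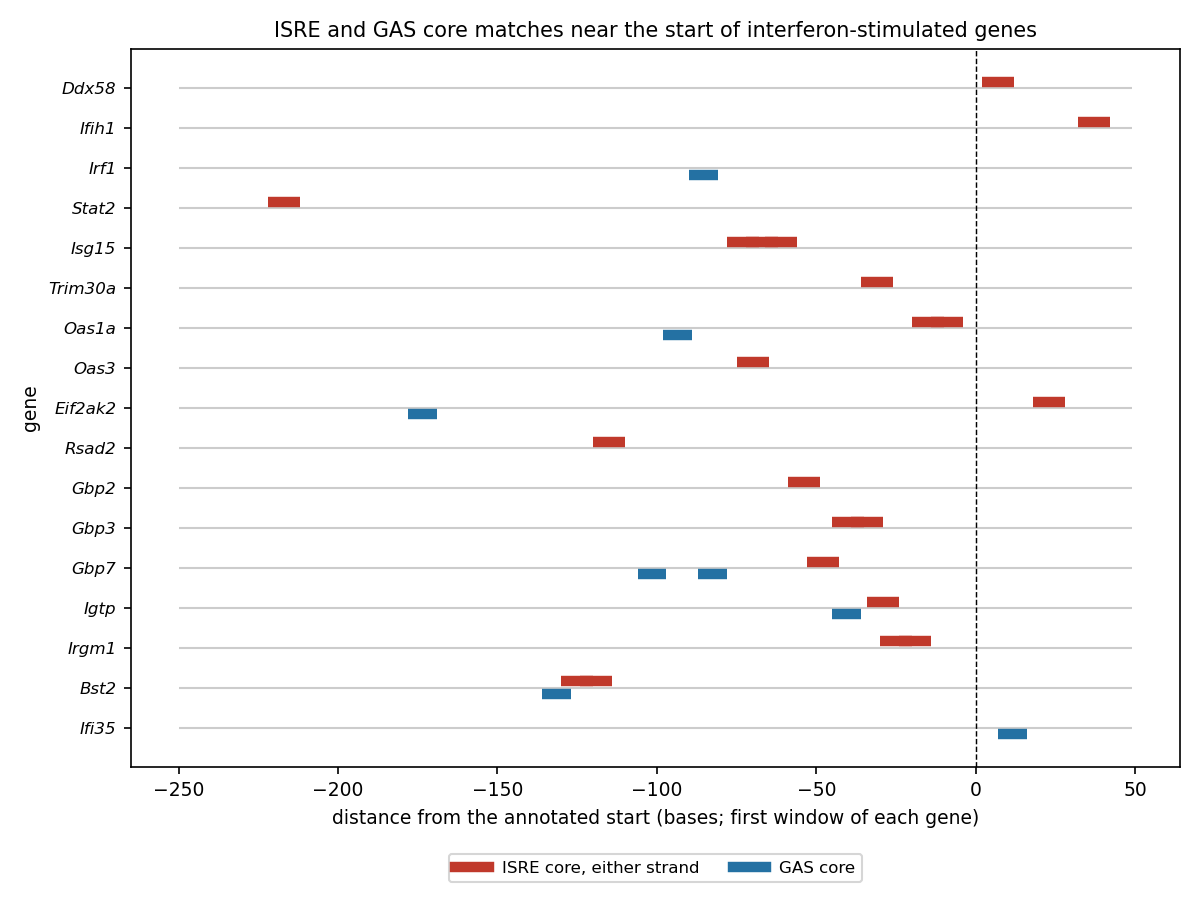
Position of ISRE core matches (red) and GAS core matches (blue) in the first promoter window of each gene that has any, in bases from the annotated start (dashed line, at 0). The 17 genes drawn include 15 with an ISRE core, and the ISRE core farthest from the start is that of Stat2, from -222 to -213.

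Reads in genes, rebuilt from the deposited values, ranged from 16251563 to 27391049 per library. Genes that mark the uterus were present in all groups, with summed levels of 2052 to 5301 FPKM (fragments per kilobase of gene, scaled to the library's total). Some libraries stood apart. For 13 marker genes of the oviduct and of ciliated cells, the mean log2 level exceeded the median library by over 1 in 8 libraries: control 4 at 4 h, doxorubicin 3 and 4 at 4 h, doxorubicin + AMH 5 at 4 h, doxorubicin 3, 4 and 5 at 24 h, and doxorubicin + AMH 4 at 24 h. These are called high-oviduct libraries. For 11 genes that answer to oestrogen in the uterus, the same score exceeded the median library by over 1.5 in 4 high-oestrogen libraries, which were control 1, 2 and 4 at 24 h and AMH 3 at 24 h. Summed levels of 7 ovary markers also spread widely, reaching 119 FPKM after doxorubicin at 4 h (median library 10 FPKM), 125 FPKM after doxorubicin at 24 h (12.4 FPKM) and 104 FPKM after AMH at 24 h (8.89 FPKM). Those of 5 adipocyte markers reached 216 FPKM after doxorubicin (21.9 FPKM) and 235 FPKM after AMH (16.2 FPKM) at 24 h. The part of these tissues in the results was not tested. The numbers of the 43 genes called are given without the high-oviduct and the high-oestrogen libraries where that changed them. The labels number replicates without stating that every library came from its own mouse, so p-values measure the spread between libraries. In bulk tissue, fewer cells of a type and less RNA per cell cannot be told apart.

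All 43 genes reached 1 FPKM in at least 5 of the 40 libraries and were tested among 16226 genes. In the 10 control libraries alone, 41 of them reached that level in at least 5, and Oas3 and Herc6 did not. Mean levels over the 40 libraries ran from 0.685 FPKM for Oas3 to 188 FPKM for Bst2, a membrane protein that tethers budding viruses. Next came Ifi27l2a (75.5 FPKM), Lgals3bp (60.2 FPKM), Ifi27 (55.1 FPKM) and Gbp2 (30.6 FPKM). The genes moved together from library to library. After the group means were removed, the median Pearson correlation over 903 pairs of genes was 0.71 across 40 libraries, from -0.01 to 0.94, and 902 pairs were positive. This is a description across libraries that share depth and tissue makeup. Ifi27 followed the others least (median r 0.43) and Irf7 most (median r 0.8).

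**Figure D2:**
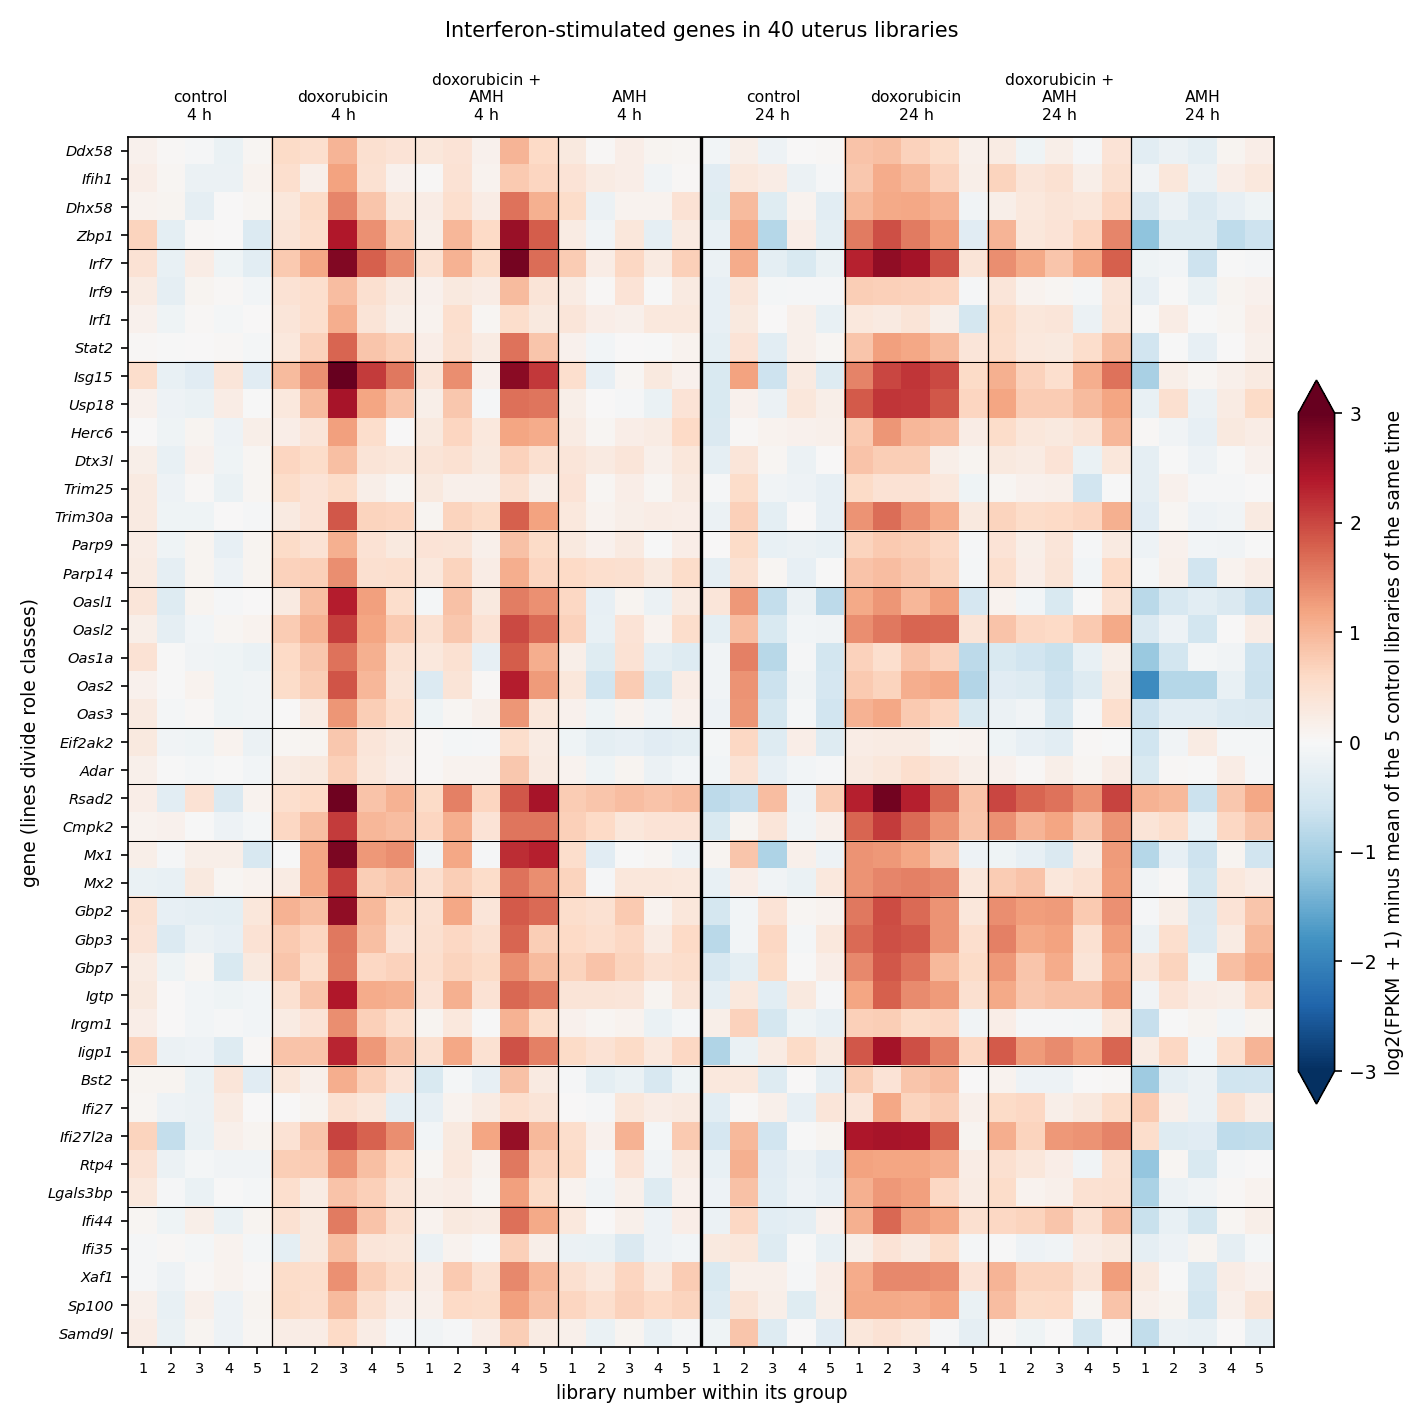
Log2(FPKM + 1) of each of the 43 genes in each of the 40 libraries, minus the mean of the 5 control libraries of the same time, with genes in role classes. Doxorubicin library 3 at 4 h was the highest of its group for 43 of 43 genes, and doxorubicin library 5 at 24 h was the lowest of its group for 42.

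After doxorubicin, more of these genes passed the adjusted threshold at 24 h than at 4 h. At 4 h, 7 of 43 genes rose: Ddx58, Irf7, Isg15, Dtx3l, Oasl2, Cmpk2 and Igtp. Across all genes tested, 0.388% rose in that comparison. At 24 h, 31 of 43 rose, against 8.44% of all genes. None of the 43 fell at either time. At an unadjusted p under 0.05 (limma), 38 of 43 were higher at 4 h and 37 at 24 h, against 948 and 2809 of all 16226 genes. The adjusted threshold depends on all genes of a comparison, of which 80 were called at 4 h and 2984 at 24 h. The 12 genes not called at 24 h were Irf1, Trim25, Oasl1, Oas1a, Oas2, Oas3, Eif2ak2, Adar, Mx1, Irgm1, Ifi35 and Samd9l. The estimated change was above 0 for 43 of 43 genes at both times, against 51.7% and 48.7% of all genes. The median change on the log2(FPKM + 1) scale was 0.75 at 4 h and 0.88 at 24 h, and over all genes tested it was 0.01 and -0.01. At 4 h the 5 doxorubicin libraries all lay above the 5 control libraries for 27 of 43 genes (1.76% of all genes), and at 24 h for 8 (1.92%). The change at 24 h was not shown to differ from the change at 4 h: 0 of 43 genes passed the test of that difference (0.0123% of all genes; limma, with 1 gene, Ifi27, at an unadjusted p under 0.05 and a lowest adjusted p of 0.51).

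**Figure D3:**
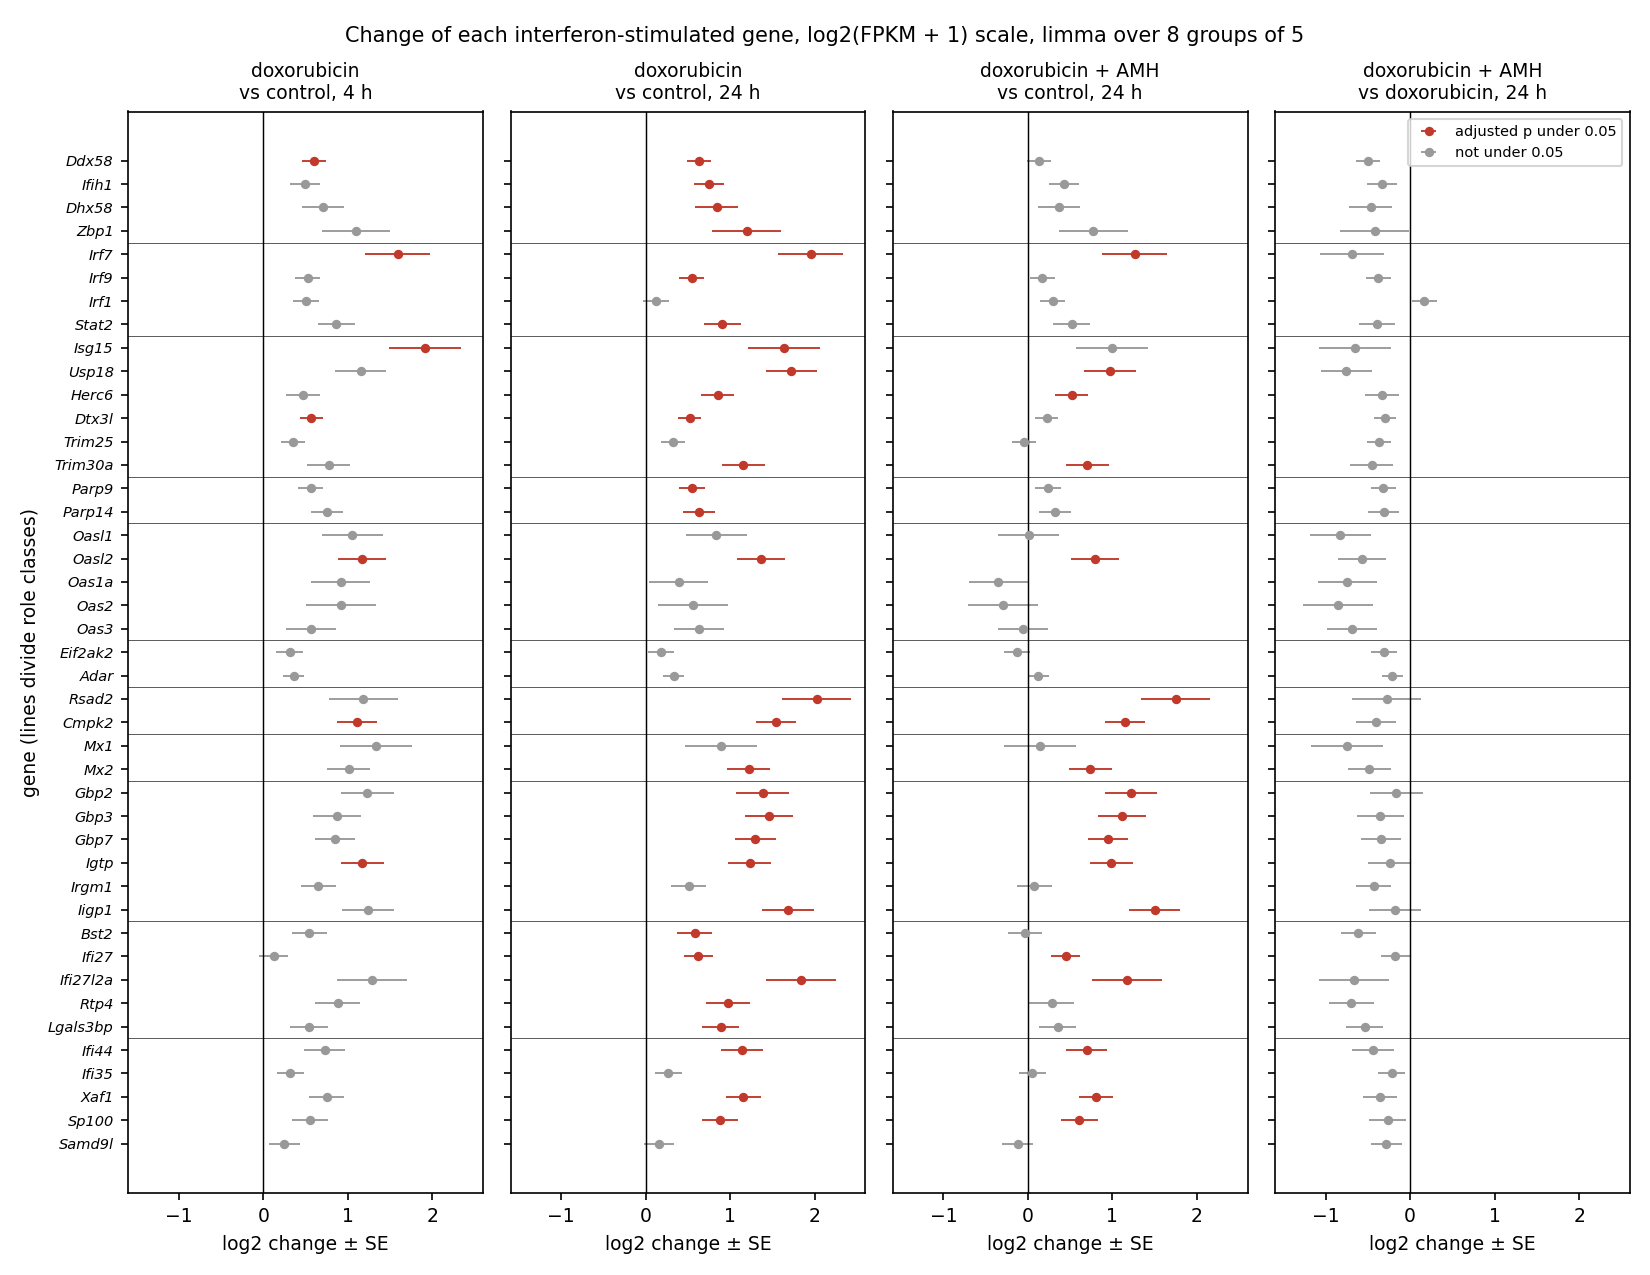
Log2 change with its standard error for each of the 43 genes in 4 comparisons (columns), from limma on log2(FPKM + 1) with 8 groups of 5 libraries; red marks an adjusted p under 0.05. Doxorubicin against control has 7 red genes at 4 h and 31 at 24 h, doxorubicin + AMH against control at 24 h has 18, and doxorubicin + AMH against doxorubicin at 24 h has 0, with 42 of 43 points below 0.

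The counts rested on few libraries. Doxorubicin library 3 at 4 h lay 1.46 above the control mean (median of the 43 genes, log2 scale), and the other 4 libraries of that group lay 0.45, 0.54, 0.74 and 0.5 above it. Without library 3, 0 of 43 genes were called at 4 h, with a median change of 0.59, above 0 for 43 genes. Without the high-oviduct libraries, 0 were called at 4 h and 34 at 24 h, with medians of 0.53 and 1.14. At 24 h that setting kept only doxorubicin libraries 1 and 2, and left out library 5, the low one of its group. Without the high-oestrogen libraries, 13 were called at 4 h. Those libraries are all from 24 h, so the 4 h median stayed at 0.75. Only the shared estimate of the spread and the set of genes tested changed there. At 24 h leaving them out keeps 2 control libraries, and 5 genes were called (Cmpk2, Irf7, Lgals3bp, Oasl2 and Trim30a) with a median change of 1.09. Leaving out doxorubicin library 2 or 5 at 4 h gave 3 or 13 calls, and leaving out control library 2, 3, 4 or 5 gave 1, 0, 1 and 1. With only the control and doxorubicin libraries of 24 h in the fit, 2 genes were called, Cmpk2 and Usp18. At 24 h doxorubicin library 5 lay 0.15 above the control mean, and libraries 1 to 4 lay 1.06, 1.23, 1.16 and 0.96 above it. The part of oviduct tissue or of oestrogen state in these differences was not tested.

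**Figure D4:**
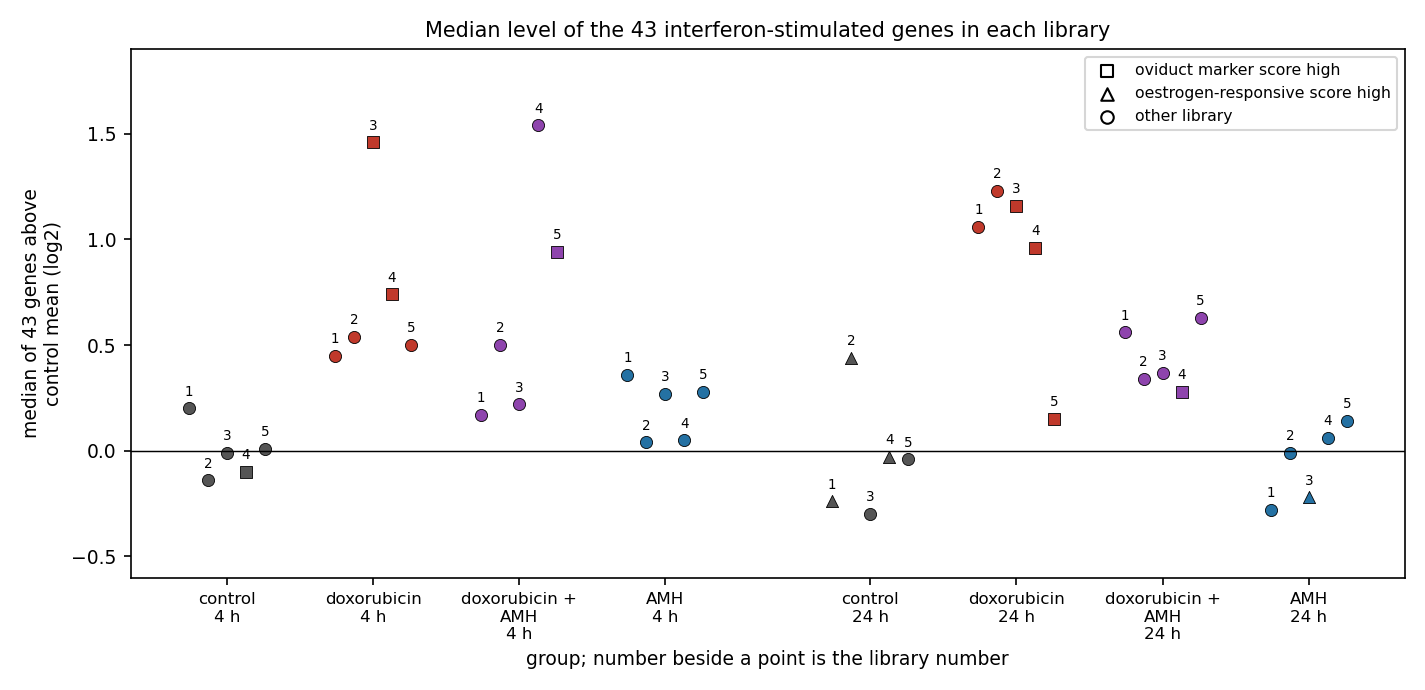
Median over the 43 genes of log2(FPKM + 1) minus the control mean of the same time, a point per library, numbered within its group; squares are high-oviduct and triangles high-oestrogen libraries. Doxorubicin libraries 1 to 4 at 24 h lie between 0.96 and 1.23, above every control library, and library 5 lies at 0.15.

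In what follows, a change is the difference in mean log2(FPKM + 1) from control ± its standard error, positions are on mm10, and values are listed from library 1 to library 5. Among the sensors of foreign nucleic acid, Ddx58 encodes RIG-I, which binds viral RNA ends. Ddx58 (chromosome 4, 40203773 to 40239828) stood at 6.66, 6.25, 5.85, 5.14 and 6.36 FPKM in controls 1 to 5 at 4 h and at 9.41, 9.04, 13.4, 8.78 and 8.35 FPKM after doxorubicin. The ranges did not overlap, and library 3 was the highest. The change was 0.6 ± 0.14, limma adjusted p = 0.037. At 24 h controls gave 6.67, 8.1, 6.34, 7.17 and 7.28 FPKM and doxorubicin 13.7, 14.1, 12.1, 10.8 and 7.98 FPKM, where library 5 fell within the control range (0.63 ± 0.14, limma adjusted p = 0.0041). The other 3 sensors, Ifih1 (MDA5, a sensor of long double-stranded RNA), Dhx58 (LGP2, which tunes both) and Zbp1 (a sensor of Z-form nucleic acid that can trigger cell death), rose at 24 h. Their changes at 4 h missed the threshold, and the difference between the times did not pass for any of the 4 sensors, at 0.03 to 0.27. Zbp1 went from 3.23 ± 2.501 to 8.71 ± 4.24 FPKM at 24 h (SD, n = 5 each), a change of 1.2 ± 0.41, limma adjusted p = 0.039.

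Of the 4 transcription factors, Irf7, the factor that amplifies type I interferon production, changed most. Irf7 (chromosome 7, 141262706 to 141266481) read 6.53, 3.77, 5.51, 4.08 and 3.44 FPKM in 4 h controls and 8.63, 11.4, 37.3, 18.1 and 13.9 FPKM after doxorubicin. Every doxorubicin library lay above every control, from 8.63 FPKM in library 1 to 37.3 FPKM in library 3 (1.59 ± 0.38, limma adjusted p = 0.043). At 24 h controls read 6.67, 17.6, 5.98, 5.29 and 6.51 FPKM, high in library 2, and doxorubicin libraries 41.3, 53.4, 47.9, 31.2 and 10.3 FPKM, low in library 5. The change was 1.95 ± 0.38, limma adjusted p = 0.0014. Irf7 overlaps the gene Phrf1, and reads from the overlap cannot be assigned without strand. Stat2 and Irf9, which belong to the ISRE-binding complex, rose at 24 h by 0.91 and 0.55 on the log2 scale (limma adjusted p = 0.0066 and 0.015). Irf1, which also answers to interferon gamma, did not pass at either time (0.51 ± 0.15, limma adjusted p = 0.13; 0.12 ± 0.15, limma adjusted p = 0.56). Its 4 h levels were 15.7, 12.8, 14.5, 13.7 and 14.4 FPKM in controls and 18.7, 20.4, 31.1, 18.9 and 16.2 FPKM after doxorubicin, without overlap. Its 24 h ranges overlapped, at 10.9 to 16.3 and 8.71 to 17.3 FPKM.

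Isg15 is a ubiquitin-like protein that is attached to other proteins during antiviral responses, and Usp18 removes it and damps interferon receptor signalling. Isg15 (chromosome 4, 156199424 to 156200818) measured 13.9, 7.97, 7.27, 12.4 and 7.29 FPKM in 4 h controls and 18.99, 25.9, 126, 43.4 and 29.9 FPKM after doxorubicin. Library 3 held more than the other 4 together, and the lowest doxorubicin library was above the highest control (1.92 ± 0.43, limma adjusted p = 0.025). At 24 h the levels were 11.2, 37.3, 9.85, 19.1 and 11.7 FPKM in controls and 46.1, 66.2, 72.5, 65.1 and 23.96 FPKM after doxorubicin, so control library 2 exceeded doxorubicin library 5 (1.64 ± 0.43, limma adjusted p = 0.011). Usp18 (chromosome 6, 121245906 to 121270917) at 24 h measured 1.45, 2.66, 1.99, 3.22 and 2.79 FPKM in controls and 11.1, 13.8, 13.6, 11.3 and 4.25 FPKM after doxorubicin. All 5 doxorubicin libraries were above all controls (1.73 ± 0.31, limma adjusted p = 0.00046), whereas the 4 h change of 1.15 missed the threshold (limma adjusted p = 0.082). Of the 6 genes of this class, 2 rose at 4 h (Isg15 and Dtx3l) and 5 at 24 h. Trim25, the ubiquitin ligase that activates RIG-I, was the exception at 24 h with 0.32 ± 0.14, limma adjusted p = 0.096. Herc6, the ISG15 ligase of the mouse, shares 23.8% of its 50-base stretches with other annotated transcripts, so its value is uncertain.

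Parp9 and Parp14, enzymes of the ADP-ribose system that act in interferon signalling, rose at 24 h. Parp9 (chromosome 16, 35938470 to 35972605) averaged 10.2 ± 2.99 FPKM in 24 h controls and 15.3 ± 3.26 FPKM after doxorubicin, and rose by 0.55 ± 0.15, limma adjusted p = 0.016. Parp14 (chromosome 16, 35832874 to 35871544) averaged 7.58 ± 1.84 and 12.5 ± 3.17 FPKM and rose by 0.63 ± 0.19, limma adjusted p = 0.021. In both, doxorubicin library 5 lay inside the control range. At 4 h their changes of 0.56 and 0.75 were of like size or larger and missed the threshold (limma adjusted p = 0.09 and 0.055). Parp9 overlaps Dtx3l, its partner as a protein, on the opposite strand, so reads of the shared stretch are uncertain for both genes.

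The oligoadenylate synthetases make the small RNA messenger that switches on RNase L. Of the 5, 1 was called after doxorubicin at both times, Oasl2, an OAS-like protein with ubiquitin-like domains. Oasl2 (chromosome 5, 114896936 to 114912234) read 8.19, 5.76, 6.697, 7.46 and 7.66 FPKM in 4 h controls and 12.7, 15.6, 33.2, 17.4 and 12.9 FPKM after doxorubicin, without overlap (1.17 ± 0.28, limma adjusted p = 0.045). At 24 h it read 7.99, 19.8, 7.01, 9.299 and 9.26 FPKM in controls and 27.7, 32.1, 35.5, 35.3 and 13.3 FPKM after doxorubicin (1.37 ± 0.28, limma adjusted p = 0.0023), and control library 2 was above doxorubicin library 5. Oas2 (chromosome 5, 120730333 to 120749853) was named after its values were seen. Its 24 h controls were 8.21, 24.4, 5.38, 8.17 and 6.06 FPKM, with library 2 above every doxorubicin library (16, 14.8, 20.1, 21.1 and 4.39 FPKM), and the change was 0.56 ± 0.41, limma adjusted p = 0.32. Oas1a behaved alike in these libraries, with 32.4 FPKM in control library 2 and at most 20.2 FPKM after doxorubicin. Oas1a shares 57.6% of its 50-base stretches with transcripts of other genes, of which Oas1g shares the most, and its level is uncertain to that extent.

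Eif2ak2 and Adar act on double-stranded RNA, Eif2ak2 (PKR) by halting translation and Adar by editing adenosines. Neither was called at 4 h or 24 h. Eif2ak2 averaged 10.5 ± 3.59 FPKM in 24 h controls and 11.6 ± 0.683 FPKM after doxorubicin (0.18 ± 0.16, limma adjusted p = 0.41). Adar averaged 8.02 ± 1.76 and 10.2 ± 0.948 FPKM (0.33 ± 0.13, limma adjusted p = 0.055). At 4 h Adar ran from 6.91 to 8.21 FPKM in controls and from 8.57 to 12.6 FPKM after doxorubicin, without overlap, with a limma adjusted p of 0.22.

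Rsad2 and Cmpk2 lie side by side on chromosome 12. Rsad2 encodes viperin, which makes a chain-terminating nucleotide from CTP, and Cmpk2 a mitochondrial nucleotide kinase that can supply it. Cmpk2 (chromosome 12, 26469204 to 26479837) held 3.79, 3.87, 3.41, 2.998 and 3.27 FPKM in 4 h controls, 5.81, 7.31, 18.1, 7.85 and 7.49 FPKM after doxorubicin and 5.93, 8.46, 4.88, 12.6 and 12.7 FPKM after doxorubicin + AMH. Neither treated group overlapped the controls, and Cmpk2 was called in both (1.11 ± 0.24, limma adjusted p = 0.02; 1.07 ± 0.24, limma adjusted p = 0.028). It had the smallest p of the 43 genes at 24 h, where controls held 1.91, 3.24, 4.14, 2.72 and 3.47 FPKM and doxorubicin libraries 12.5, 16.3, 12.01, 9.29 and 6.17 FPKM (1.55 ± 0.24, limma adjusted p = 7.7e-05). Rsad2 (chromosome 12, 26442746 to 26456452) had the largest 24 h change of the 43 genes. It went from 0.822, 0.959, 4.98, 1.83 and 4.25 FPKM to 14.8, 22.6, 14.9, 9.44 and 4.698 FPKM (2.02 ± 0.41, limma adjusted p = 0.002). Control library 3 overlapped doxorubicin library 5, and controls 1 and 2 were under 1 FPKM. At 4 h doxorubicin library 3 stood at 31.4 FPKM and the other 4 at 5.05 to 7.92 FPKM, and the change of 1.18 did not pass (limma adjusted p = 0.22).

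The Mx GTPases trap viral ribonucleoproteins. Mx2 (chromosome 16, 97535308 to 97560900) was called at 24 h, at 0.975, 1.66, 1.13, 1.02 and 1.89 FPKM in controls and 4.9, 5.33, 5.54, 5.31 and 1.94 FPKM after doxorubicin. The groups did not overlap, although control 5 and doxorubicin 5 nearly met (1.22 ± 0.25, limma adjusted p = 0.0024). Mx1 (chromosome 16, 97447035 to 97462907) missed the threshold at both times (1.33 ± 0.43, limma adjusted p = 0.17; 0.89 ± 0.43, limma adjusted p = 0.12). At 4 h it ran from 0.313 to 1.08 FPKM in controls and from 0.828 to 12.1 FPKM after doxorubicin. Mx2 was near 1 FPKM in controls, where the scale of log2(FPKM + 1) understates a change.

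The guanylate-binding proteins (Gbp2, Gbp3, Gbp7) and the immunity-related GTPases (Igtp, Irgm1, Iigp1) attack the vacuoles of intracellular parasites and answer to interferon gamma as well as type I interferons. Of the 6, 5 rose at 24 h and 1 (Igtp) at 4 h, the median changes being 1.34 and 1.02. Igtp (chromosome 11, 58199556 to 58207591) read 14.1, 11.3, 10.6, 10.2 and 10.6 FPKM in 4 h controls and 15.8, 20.8, 64.5, 25.4 and 24.7 FPKM after doxorubicin, without overlap (1.17 ± 0.26, limma adjusted p = 0.023). Gbp2 (chromosome 3, 142620602 to 142638008) read 23.7, 14.3, 13.96, 13.8 and 21.6 and 35.8, 32.6, 113, 34.5 and 25.6 FPKM, also without overlap, but with library 3 more than 3 times the others its change of 1.23 had a limma adjusted p of 0.062. At 24 h Gbp2 read 10.2, 14.3, 20.4, 15.8 and 16.3 FPKM in controls and 47.1, 61.1, 51.5, 39.7 and 19.3 FPKM after doxorubicin (1.38 ± 0.31, limma adjusted p = 0.0048). Iigp1 (chromosome 18, 60376029 to 60392627) was the strongest of the class at 24 h. It read 3.78, 6.83, 9.67, 12.3 and 9.99 FPKM in controls and 31.4, 49.4, 33.1, 24.8 and 12.8 FPKM after doxorubicin, all above the controls (1.68 ± 0.31, limma adjusted p = 0.0006). Irgm1, which restrains the other GTPases, was not called (0.51 ± 0.2, limma adjusted p = 0.071). Igtp overlaps Irgm2 and shares 12.3% of its 50-base stretches with transcripts of other genes, of which Irgm2 shares the most. Gbp7 shares 12.8% with other annotated transcripts, so both Igtp and Gbp7 are uncertain.

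Of the membrane and secreted products, 5 of 5 rose at 24 h, and 0 of 5 passed the test at 4 h. Bst2 (chromosome 8, 71534255 to 71537456) measured 262, 262, 160.2, 212 and 174 FPKM in 24 h controls and 348, 278, 376, 399 and 210.1 FPKM after doxorubicin, with overlap through doxorubicin library 5 (0.58 ± 0.21, limma adjusted p = 0.046). Ifi27l2a (chromosome 12, 103442167 to 103443680), a small mitochondrial and nuclear envelope protein, measured 33.1, 93.3, 31.4, 46.5 and 50.1 and 256, 265, 259, 165 and 50.04 FPKM. Libraries 1 to 4 after doxorubicin exceeded every control, and library 5 did not (1.84 ± 0.42, limma adjusted p = 0.0046). Ifi27, its neighbour, rose less (0.62 ± 0.17, limma adjusted p = 0.015). Lgals3bp, a secreted glycoprotein, and Rtp4, a chaperone and interferon brake, rose by 0.89 and 0.98 on the log2 scale (limma adjusted p = 0.0086 and 0.014). Rtp4 overlaps Masp1.

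Of the remaining 5 genes, Ifi44, Xaf1 and Sp100 rose at 24 h, and none of the 5 passed at 4 h. Xaf1 (chromosome 11, 72301629 to 72313733), which counters inhibitors of apoptosis, read 2.82, 4.81, 4.79, 4.12 and 5 FPKM in 24 h controls and 10.3, 13.2, 13.3, 12.8 and 5.91 FPKM after doxorubicin, without overlap (1.16 ± 0.2, limma adjusted p = 0.00042). Sp100 (chromosome 1, 85649988 to 85709998), a scaffold of nuclear bodies, read 5.63, 10.2, 8.78, 5.72 and 8.72 and 17.9, 18.02, 17.5, 19.04 and 6.496 FPKM. Its libraries 1 to 4 after doxorubicin were between 17.5 and 19.0 FPKM and library 5 was inside the control range (0.88 ± 0.22, limma adjusted p = 0.0079). Ifi35 and Samd9l were not called at 24 h (0.27 ± 0.16, limma adjusted p = 0.21; 0.16 ± 0.18, limma adjusted p = 0.53). Ifi35, a leucine-zipper protein released as a danger signal, averaged 17.9 ± 4.04 FPKM in controls and 21.6 ± 3.48 FPKM after doxorubicin.

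**Figure D5:**
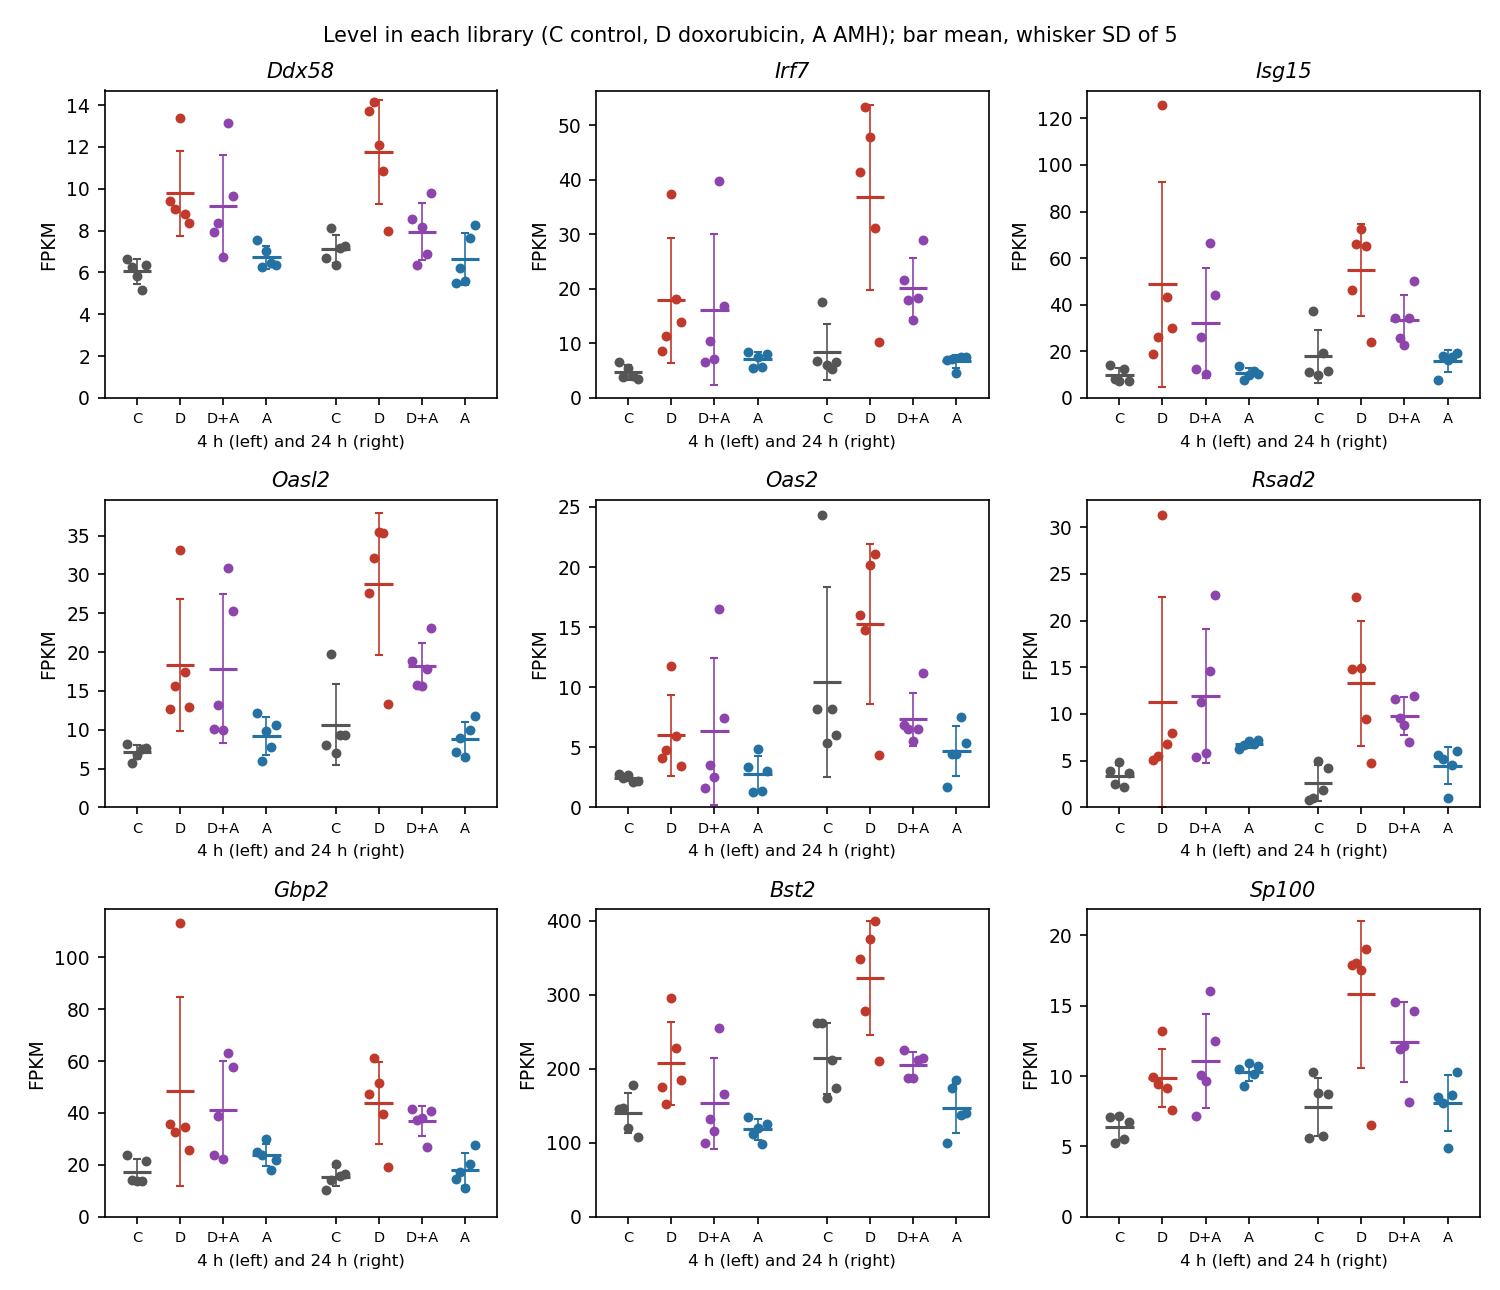
FPKM of 9 of the genes in every library (points) by group at 4 h and 24 h, with the group mean (bar) and SD (whisker, n = 5, drawn only above 0). In Irf7 at 24 h, the libraries ran from 10.3 to 53.4 FPKM after doxorubicin, from 14.3 to 28.9 FPKM after doxorubicin + AMH and from 5.295 to 17.6 FPKM in controls.

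With AMH added to doxorubicin the same controls serve as reference, so these values are not independent of those above. At 4 h doxorubicin + AMH against control called 1 of 43 genes, Cmpk2, against 0.216% of all genes. At an unadjusted p under 0.05 (limma), 32 of 43 were higher, against 1479 of all 16226 genes. The median change was 0.69, against 0.01 over all genes tested. The 5 libraries all lay above the controls for 15 genes (3.86% of all genes). Library 4 of this group was the highest for 40 of 43 genes and lay 1.54 above the control mean, and without it the median change was 0.46 and 0 genes were called. The call of Cmpk2 was also lost without any 1 of the 5 controls and without library 2 or 5 of the treated group. Without the high-oviduct libraries 0 were called and without the high-oestrogen libraries 17. None of the high-oestrogen libraries is from 4 h, so only the shared estimate of the spread and the set of genes tested changed. At 24 h 18 of 43 rose, against 15.7% of all genes, and the groups did not overlap for 9 (4.2% of all genes). The median change was 0.43 and 36 of 43 were above 0, against a median of -0.005 and 49.5% above 0 over all genes. Of the role classes, both viperin neighbours and 5 of 6 GTPases of the GBP and IRG class rose, while 0 of 4 sensors, 0 of 2 ADP-ribosyltransferases and 1 of 5 oligoadenylate synthetases did. Rsad2 read 11.6, 9.53, 8.81, 7.03 and 11.9 FPKM, all above the controls (1.75 ± 0.41, limma adjusted p = 0.0026). Iigp1 read 31.2, 20.7, 23.1, 19.98 and 28.9 FPKM, likewise above every control (1.5 ± 0.31, limma adjusted p = 0.00093). Ddx58 read 8.54, 6.37, 8.15, 6.87 and 9.81 FPKM and overlapped the controls (0.13 ± 0.14, limma adjusted p = 0.48), as did Isg15 at 34.1, 25.8, 22.6, 34.5 and 50.3 FPKM (0.99 ± 0.43, limma adjusted p = 0.067). Without the high-oestrogen libraries, 0 genes were called at 24 h while the change was above 0 for 43 of 43 with a median of 0.62; without the high-oviduct libraries 22 were called. Leaving out control library 1 or 4, or doxorubicin + AMH library 5, gave 9, 10 and 10 calls.

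Set directly against doxorubicin alone, doxorubicin + AMH called 0 of 43 genes at 4 h (0.00616% of all genes in either direction) and 0 of 43 at 24 h (0.333%). At 24 h the estimates were below 0 for 42 of 43 genes, Irf1 being the exception, and the median was -0.39, against 51.4% of all genes below 0 and a median of -0.01. At an unadjusted p under 0.05, 14 of 43 were lower, against 5.97% of all genes, and none was higher. The smallest p was that of Ddx58, at 11.8 ± 2.49 FPKM after doxorubicin and 7.95 ± 1.37 FPKM with AMH (-0.5 ± 0.14, limma adjusted p = 0.11). Usp18 stood at 10.8 ± 3.88 and 5.64 ± 0.987 FPKM (-0.76 ± 0.31, limma adjusted p = 0.31), and Bst2 at 322 ± 77.3 and 205 ± 16.8 FPKM (-0.62 ± 0.21, limma adjusted p = 0.2). Doxorubicin library 5, the low library of its group, lay within the doxorubicin + AMH range for Ddx58 and Bst2 and below it for Usp18. Without library 5, 2 genes passed, Ddx58 (-0.62, limma adjusted p = 0.02) and Irf9 (-0.52, limma adjusted p = 0.049), and the median was -0.58. Weighting each library by its fit to its group called 17 of 43 lower. The number of all genes called with those weights is not given here. At 4 h the median difference was -0.1, with 35 of 43 below 0, and it was 0.06 with 27 above 0 when doxorubicin library 3 was left out. Over all genes at 4 h, with every library kept, 48.1% were below 0 and the median was 0.01.

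AMH alone raised 1 of 43 genes at 4 h, Sp100, against 9.13% of all genes. Sp100 read 7.099, 5.23, 7.16, 5.56 and 6.74 FPKM in controls and 10.5, 9.297, 10.9, 10.1 and 10.7 FPKM after AMH, without overlap (0.63 ± 0.22, limma adjusted p = 0.036). The call was lost without AMH library 1, 3, 4 or 5 or control library 1, 2 or 4. Rsad2 read 3.94, 2.47, 4.83, 2.16 and 3.65 and 6.23, 6.63, 7.15, 6.78 and 7.21 FPKM, also without overlap, and did not pass (0.86 ± 0.41, limma adjusted p = 0.13). The 5 AMH libraries all lay above the 5 controls for 7 of 43 genes, against 11.28% of all genes. They all lay below the controls for 1 of 43, Ifi35, against 13.05% of all genes. Gbp7, Parp14 and Xaf1 had changes of 0.64, 0.48 and 0.51 with limma adjusted p-values of 0.054, 0.062 and 0.071. The median change was 0.19, with 36 of 43 above 0, against a median of 0.01 and 50.9% above 0 over all genes. With only the groups compared in the fit, 12 were called higher and 2 lower, and the number of all genes called in that fit is not given here. At 24 h, 0 of 43 were called (0.462% of all genes; limma, with 1 higher and 2 lower at an unadjusted p under 0.05), and the median was -0.06, with 29 of 43 below 0. Across all genes, 1351 were higher and 1707 lower at that unadjusted level, and 51.5% were below 0 with a median of -0.01. For the 43 genes the direction turned without the high-oestrogen libraries (median 0.09, 34 above 0) and without control library 2 alone (0.05, 27 above 0). It also turned with voom on rebuilt reads (0.06, 24 above 0) and with library weights (0.01, 22 above 0). The test of whether AMH acted differently with doxorubicin than without it called 0 of 43 genes at 4 h and 0 at 24 h (0.0% of all genes both times; limma, with 3 genes at an unadjusted p under 0.05 at each time, all negative). Those were Parp14, Irf1 and Dtx3l at 4 h and Gbp7, Cmpk2 and Usp18 at 24 h. Of all 16226 genes, 1031 were negative and 1325 positive at that unadjusted level at 4 h, and 287 and 388 at 24 h.

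In the controls, 24 h against 4 h called 1 of 43 genes, Oas2, against 4.28% of all genes higher. Oas2 read 2.77, 2.42, 2.71, 2.15 and 2.22 FPKM at 4 h and 8.21, 24.4, 5.38, 8.17 and 6.06 FPKM at 24 h, without overlap (1.53 ± 0.41, limma adjusted p = 0.021). Its call was lost without control library 2 of 24 h, which had the highest oestrogen-responsive score of all libraries (7.46), without control library 5 of 4 h and without the high-oestrogen libraries. Control library 2 was the highest of its group for 32 of 43 genes and lay 0.44 above the control mean. Oas1a and Bst2 had changes of 1.0 and 0.6 with limma adjusted p-values of 0.072 and 0.068.

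The genes upstream of these were measured on the same scale. Of 21 listed interferon genes, Ifne, the interferon epsilon of the reproductive tract, was the only gene to pass the filter on low values. It averaged 5.58 ± 5.12 FPKM in 24 h controls and 4.11 ± 2.43 FPKM after doxorubicin and was not called in any comparison of doxorubicin (0.48 ± 0.44, limma adjusted p = 0.72; -0.13 ± 0.44, limma adjusted p = 0.84). Interferon beta (Ifnb1) was listed at 0 in 38 of 40 libraries, and its rebuilt reads were 1 in the 5 doxorubicin libraries of 4 h and 4 in the 5 AMH libraries of 4 h. Interferon gamma (Ifng) held 19 and 20 reads in the control and doxorubicin libraries of 4 h and 15 and 6 in those of 24 h. Interferon zeta (Ifnz) held 1 and 12 reads in the control and doxorubicin libraries of 4 h and 2 and 10 in those of 24 h, from 3 and 2 doxorubicin libraries. Ifnab held 0 and 2 at 4 h and 0 and 4 at 24 h, each from 1 doxorubicin library. These genes were below the filter and were not tested. Of 9 receptors and kinases, 0 were called at 4 h and 2 rose at 24 h, the type I receptor subunit Ifnar2 (0.45 ± 0.11, limma adjusted p = 0.0056) and the kinase Tyk2 (0.46 ± 0.14, limma adjusted p = 0.027). Of 12 tested sensors and adaptors, Ifi203, Ifi204 and Ikbke rose at 24 h and Mavs, the mitochondrial adaptor of RIG-I, fell (-0.38 ± 0.1, limma adjusted p = 0.014). Across all 16226 genes tested, 1369 rose and 1615 fell after doxorubicin at 24 h. Sting, listed as Tmem173, read 44.3 ± 28.9 FPKM in controls, 24.4 ± 7.02 FPKM after doxorubicin and 17.8 ± 2.97 FPKM after doxorubicin + AMH, where it fell (-1.06 ± 0.26, limma adjusted p = 0.0036). In that comparison 1 of the 12 rose, Ifi203, and 5 fell, Tmem173, Mavs, Myd88, Ticam1 and Tbk1. Of all 16226 genes, 2555 rose and 3011 fell there. Control libraries 1, 2 and 4 of 24 h were high-oestrogen libraries, and calls of these upstream genes without them are not given here. Of 9 tested brakes and nucleic acid enzymes, Samhd1 and Isg20 rose at 24 h and Socs1, an inhibitor of JAK kinases, fell (-0.82 ± 0.2, limma adjusted p = 0.0089). A further list of 33 interferon-induced genes, the Ifit genes among them, had 6 rising at 4 h and 25 at 24 h, with none falling. Their median changes were 0.55 and 0.76.

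Markers of other cells were read beside these values, and their part in the changes was not tested. The summed level of 8 macrophage markers ran from 115 to 179 FPKM in 24 h controls and from 113 to 218 FPKM after doxorubicin, where Adgre1 rose and Mrc1 and Cd163 fell. Of 9 T and NK cell markers, 5 were tested. At 24 h 0 of them were called after doxorubicin and 1 rose after doxorubicin + AMH, each against control. The 9 markers summed to 2.8 to 16.2 FPKM in 24 h controls and 6.94 to 17.9 FPKM after doxorubicin. Plasmacytoid dendritic cells, which are strong interferon producers, share Bst2 with the 43 genes. Their other markers summed to 13.7 to 31.6 FPKM in 24 h controls and 12.4 to 20.4 FPKM after doxorubicin, with Siglech never above 0.856 FPKM and Ccr9 never above 0.086 FPKM in any library. Of 7 neutrophil markers, 3 were tested. At 24 h 1 of them rose after doxorubicin and 1 fell after doxorubicin + AMH, each against control. The 7 markers summed to at most 11.6 FPKM in any library. The 13 oviduct and ciliated cell markers summed to 65.7 to 141 FPKM in 24 h controls and 96.5 to 497 FPKM after doxorubicin. Without the high-oviduct libraries, the 24 h count of the 43 genes was 34 against 31 with them. That count rests on doxorubicin libraries 1 and 2 alone and leaves out the low library 5, so it does not separate oviduct tissue from the rest. Of the 13 genes that mark the uterus, 1 rose and 3 fell after doxorubicin at 24 h, with a median change of -0.1. The 3 that fell were the smooth muscle markers Acta2, Myh11 and Des (-1.04 ± 0.15, -0.83 ± 0.16 and -0.76 ± 0.16).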

How the data were processed

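Per the labels' protocols, a Qiagen kit was used for RNA extraction and Novogene constructed the libraries. The authors deposited FPKM per gene for 40 libraries, per the file headers, with mm10 as genome build per the submitters' processing notes. Strand setting, aligner, counter and annotation: not given in the sources used here. Therefore reads of overlapping genes and near-identical copies are uncertain. Whole reads rebuilt from the deposited FPKM (tolerance 0.01, 100.0% of the values checked) gave the depth and the counts of an alternative fit; all 40 columns were matched to samples.

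Log2(FPKM + 1) was computed from the deposited values. Genes with at least 1 FPKM in at least 5 libraries (16226) were tested with limma 3.58.1 in R 4.3.3 (trend, all 8 groups, 32 residual degrees of freedom), with Benjamini-Hochberg adjustment over all genes within each of 12 comparisons and a threshold of 0.05. Changes are log2 ± standard error, and levels are mean ± SD over 5 libraries. Python 3.11.15, pandas 2.3.3 and matplotlib 3.10.9 were also used, and the fit was tested on simulated data.

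The members and gene lists were chosen with earlier results of these data known. Genes named in each role class were that with the highest mean FPKM, that with the smallest p for doxorubicin at either time, and those called in an AMH comparison; other named genes were chosen after their values were seen. Alternatives were the pseudocount (0.1), the filter (none or 5 FPKM), median-of-ratios scaling, a fit of the compared groups alone, library weights, a replicate block, voom on rebuilt reads and leaving out each library. Leaving out the high-oviduct or the high-oestrogen libraries was added after the data were seen. Libraries with the same number did not deviate together, so the numbers were not used as pairs. The listed transcription factors outside the 43 genes are not reported here.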

Additional observations from a re-analysis of the deposited data

Results flagged for a closer look

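Of 168 pairs of a named gene and a group of 5 libraries, 21 held a library far from the other 4 (gap to the nearest library over the whole range above Dixon's critical value of 0.71). Chance gives about 1 in 20 such groups, and the genes vary together, so these are not 21 separate events. Doxorubicin library 3 at 4 h was the high library for 7 genes, with Ddx58 at 13.37 FPKM, Parp14 at 17.5 FPKM, Adar at 12.61 FPKM, Rsad2 at 31.36 FPKM, Cmpk2 at 18.09 FPKM, Gbp2 at 113.2 FPKM and Xaf1 at 10.42 FPKM. Doxorubicin library 5 at 24 h was the low library for 8 genes, with Irf1 at 8.708 FPKM, Usp18 at 4.25 FPKM, Parp9 at 9.633 FPKM, Parp14 at 7.07 FPKM, Oasl2 at 13.34 FPKM, Mx2 at 1.938 FPKM, Ifi27l2a at 50.04 FPKM and Sp100 at 6.496 FPKM. Control library 2 at 24 h was high for Irf7 (17.63 FPKM) and Oasl2 (19.77 FPKM). AMH library 3 at 24 h was low for Irf7 (4.585 FPKM) and Rsad2 (1.015 FPKM), and AMH library 1 at 24 h was low for Isg15 (7.534 FPKM). Doxorubicin + AMH library 4 at 24 h was low for Gbp2 (26.85 FPKM).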

How the results depend on the processing

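Values here are numbers of the 43 genes called, and no called change reversed under any alternative run. The numbers of all genes called under each alternative are not given here. A count therefore does not show whether these genes shifted apart from the rest. For doxorubicin against control at 4 h (7 called) the number was 1 with no filter on low values, 0 with only the groups compared in the fit, 23 with library weights, 4 with the replicate block, 0 without the high-oviduct libraries, 13 without the high-oestrogen libraries and 0 to 13 leaving out each library. At 24 h (31 called) it was 2 with only the groups compared, 5 without the high-oestrogen libraries, which leaves 2 controls, and 24 to 37 leaving out each library. For doxorubicin + AMH against control at 4 h (1 called) it was 0 with no filter, 12 with only the groups compared, 25 with library weights, 0 with voom, 0 without the high-oviduct and 17 without the high-oestrogen libraries, and 0 to 4 leaving out each library. At 24 h (18 called) it was 10 with no filter, 0 without the high-oestrogen libraries and 9 to 20 leaving out each library. Against doxorubicin alone at 24 h (0 called) it was 17 with library weights and 0 to 2 leaving out each library. For AMH alone at 4 h (1 called) it was 0 with no filter, 3 with the filter at 5 FPKM, 14 with only the groups compared, 9 with library weights, 3 with voom, 4 without the high-oestrogen libraries and 0 to 2 leaving out each library. At 24 h (0 called) it was 3 with library weights and 0 to 2 leaving out each library. The test of AMH with against without doxorubicin (0 called) gave 1 with library weights at 4 h and 1 at 24 h. For control at 24 h against 4 h (1 called) it was 0 with only the groups compared, 3 with library weights, 2 without the high-oviduct and 0 without the high-oestrogen libraries, and 0 to 3 leaving out each library. For comparisons within 4 h, leaving out the high-oestrogen libraries removed no library of the groups compared. Only the shared estimate of the spread and the set of genes tested changed there. The cause of the other shifts was not tested.

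Correlations of same-numbered libraries ran from -0.715 to 0.388, so the numbers do not pair the libraries. With the replicate block, 17 of the 18 genes called for doxorubicin + AMH at 24 h remained. With voom the median change of all genes at 24 h was 0.128 for doxorubicin and 0.138 for doxorubicin + AMH, against -0.012 and -0.005 in the main fit. Depth limits the lowly expressed genes, Oas3 and Herc6, and the interferon genes.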
